A study of Mus musculus with 6 samples.

Results

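The enzymes described here make serine from glucose and pass its one-carbon units to folate. They are 8 genes, Phgdh, Psat1, Psph, Shmt1, Shmt2, Mthfd1, Mthfd2 and Mthfd1l, taken by symbol from a table of 22183 genes, in which each had a row. Peritoneal ECs were isolated from the mesentery of wild-type male C57BL/6J mice aged 8 to 10 weeks, and their poly(A) RNA was sequenced. For 6 weeks, 3 mice received a daily intraperitoneal injection of glucose-based Dianeal PD fluid, the solution used for dialysis across the peritoneum, and 3 received saline. The comparison asked how the transcripts of peritoneal ECs differ after repeated exposure to PD fluid. Libraries held 21973426 to 26374292 reads assigned to genes, and each enzyme had between 362 and 2247 of them in every library.

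Serine is made from the glycolytic intermediate 3-phosphoglycerate by PHGDH, PSAT1 and PSPH in turn. SHMT1 in the cytosol and SHMT2 in mitochondria then split serine into glycine and a one-carbon unit, which tetrahydrofolate carries. The MTHFD enzymes interconvert the carried units, MTHFD1 in the cytosol and MTHFD2 and MTHFD1L in mitochondria, so that formate made in mitochondria can feed purine and thymidylate synthesis in the cytosol. Proliferating ECs are known to need this route for nucleotides and heme, and ATF4, the transcription factor of the amino acid response, is known to induce several of its genes.

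The cells carried both endothelial and leukocyte transcripts, and the balance between them differed between the groups. The summed level of 12 endothelial markers was 1582 to 1695 CPM (read counts scaled to library size with TMM factors) in saline mice and 2790 to 2866 in PD mice. The summed level of 8 pan-leukocyte markers was 10807 to 11289 CPM in saline mice and 7919 to 8130 in PD mice. Of these 8, 7 were called lower, beside 27.8% of all genes, and Laptm5 was called higher (log2 fold change 0.31). The leukocyte types did not move alike, with B cell markers lower and macrophage markers higher in PD mice. Of the 12 endothelial markers, 11 were called higher, beside 31.1% of all genes. Pecam1, which encodes CD31, the protein used for isolation, was not called (log2 fold change 0.13, edgeR adjusted p = 0.0704). Per length, Ptprc, which encodes the leukocyte surface protein CD45, stood above Pecam1 in every library. Ptprc lay between 601 and 658 FPKM (fragments per kilobase of transcript, scaled to sequencing depth) in saline mice and between 388 and 401 in PD mice, and Pecam1 between 142 and 150 and between 155 and 164. The summed level of pancreatic acinar markers was between 2.58 and 6.32 CPM in saline mice and between 7300 and 8223 in PD mice. Fibroblast markers summed to 89.4 to 95.9 CPM in saline mice and 828 to 863 in PD mice. For mesothelial markers the sums were 14.1 to 17.9 CPM and 156 to 180 CPM. The effect of these shifts on the enzymes was not tested, and fewer cells of a type cannot be told apart from less RNA per cell in such bulk samples.

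No difference between PD mice and saline mice passed the test for any of the 8 enzymes with libraries scaled by TMM, while other scalings, given further on, moved them with the bulk of all genes. Of the 8, 0 were called at an adjusted p of 0.05 in edgeR's quasi-likelihood test, against 58.9% of the 14005 genes tested. An unadjusted p under 0.05 was found for 1 of the 8, Shmt1, against 63.8% of all genes, and DESeq2 and limma-voom also called 0. The median size of the log2 fold change was 0.11 over the 8 enzymes and 0.40 over all genes. Under TMM, the 95% interval of the fold change stayed within 1.5-fold in either direction for all 8 enzymes and for 40.0% of all genes. Levels in the 2 groups did not overlap for 2 of the 8, Shmt1 and Mthfd1l, as they did not for 65.6% of all genes, and PD mice were the lower group in both, as for 31.6% of all genes. A change of at least 2-fold was called for 0 of the 8 and for 17.2% of all genes.

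**Figure D1:**
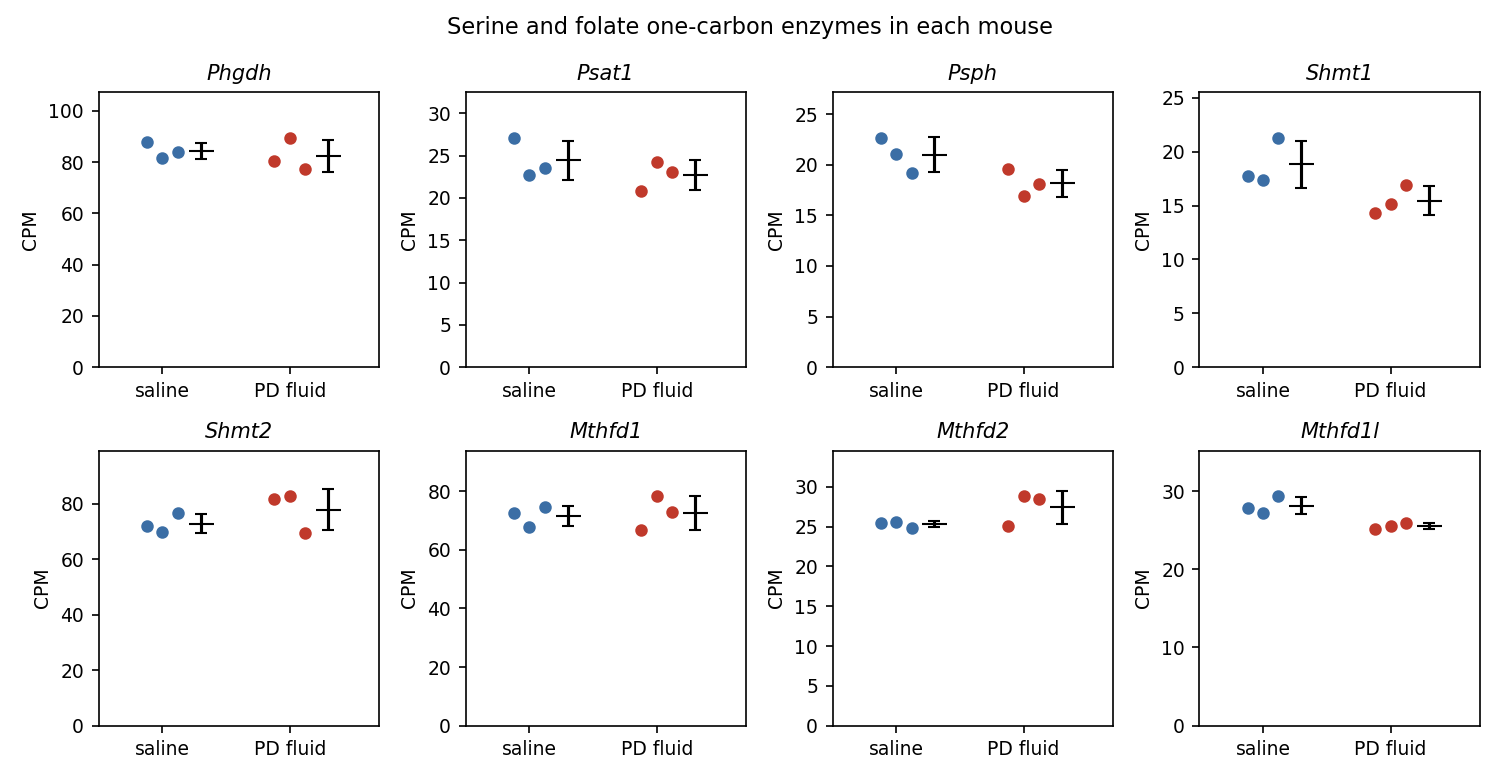
Level in CPM of each enzyme in each mouse, with saline mice in blue, PD mice in red, and the mean and SD of 3 mice in black. Every axis starts at 0, and the mice of the groups overlap in 6 panels but not in those of Shmt1 and Mthfd1l, where PD mice lie lower.

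Phgdh, which encodes the first and committed enzyme of serine synthesis, had the highest level of the 8 per length in both groups. It lay at 87.7, 81.7 and 83.8 CPM in saline mice 1, 2 and 3 and at 80.4, 89.4 and 77.4 CPM in PD mice 1, 2 and 3. PD mouse 2 was above and PD mice 1 and 3 were below every saline mouse. Under TMM, the log2 fold change was −0.03 ± 0.08 (SE, n = 3 against 3) with an edgeR adjusted p of 0.714. Its 95% interval of −0.20 to 0.13, or 0.871-fold to 1.10-fold, holds for that scaling alone. Scaled to endothelial markers the log2 fold change was −0.94, and scaled to pan-leukocyte markers it was 0.40. The values of the other enzymes in the paragraphs below are also under TMM. The gene spans bases 98313170 to 98339990 of chromosome 3, minus strand, in GRCm38 by the GENCODE M21 annotation, to which all positions of genes given here refer.

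Psat1, which encodes the aminotransferase that makes phosphoserine, lay at 27.1, 22.7 and 23.5 CPM in saline mice and at 20.8, 24.2 and 23.1 in PD mice. Saline mouse 1 was the highest and PD mouse 1 the lowest, while the other 4 were intermixed. Its log2 fold change was −0.11 ± 0.11 (SE) with an edgeR adjusted p of 0.401. Psat1 lies on chromosome 19 from 15904678 to 15947337, minus strand.

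Psph, which encodes the phosphatase that releases serine, lay at 22.6, 21.1 and 19.2 CPM in saline mice and at 19.6, 16.9 and 18.1 in PD mice. Only saline mouse 3 and PD mouse 1 kept the groups from separating. The log2 fold change was −0.21 ± 0.11 (SE), with an edgeR adjusted p of 0.123 and a 95% interval of −0.44 to 0.03. Psph lies on chromosome 5 from 129765558 to 129787449, minus strand, and its exons overlap those of Cct6a on the opposite strand, whose mean level was 164 CPM in saline mice and 225 in PD mice. The library kit does not mark strand, so reads from the shared stretch cannot be told apart.

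Shmt1, which encodes the cytosolic serine hydroxymethyltransferase, came closest to the threshold. It lay at 17.8, 17.4 and 21.3 CPM in saline mice and at 14.3, 15.2 and 16.9 in PD mice, so that every PD mouse was below every saline mouse. The log2 fold change was −0.28 ± 0.12 (SE) with a 95% interval of −0.55 to −0.02, and the edgeR adjusted p was 0.0623. Without saline mouse 2 the log2 fold change was −0.34 and the adjusted p 0.0380, and Shmt1 was then the 1 enzyme called of 8, where 54.8% of all genes were called and 25.8% were called lower. Shmt1 lies on chromosome 11 from 60788104 to 60811718, minus strand. Its exons overlap those of Smcr8 on the opposite strand, whose log2 fold change was 0.47 with an edgeR adjusted p of 0.0202.

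Shmt2, which encodes the mitochondrial form, lay at 71.9, 69.9 and 76.5 CPM in saline mice and at 81.6, 82.6 and 69.3 in PD mice. PD mice 1 and 2 were above every saline mouse and PD mouse 3 was below every one. The log2 fold change was 0.10 ± 0.08 (SE) with an edgeR adjusted p of 0.332 and a 95% interval of −0.09 to 0.28. Shmt2 lies on chromosome 10 from 127517123 to 127522444, minus strand, and shares exonic bases with Ndufa4l2 on the opposite strand, which had a mean of 5.27 CPM in saline mice and 5.85 in PD mice.

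Mthfd1, which encodes the cytosolic enzyme that carries out all steps between the methylene and formyl forms of folate, had the smallest change of the 8 under this scaling. It lay at 72.5, 67.9 and 74.4 CPM in saline mice and at 66.8, 78.2 and 72.7 in PD mice, with both the lowest and the highest mouse in the PD group. Its log2 fold change was 0.02 ± 0.08 (SE) with an edgeR adjusted p of 0.854. Mthfd1 lies on chromosome 12 from 76255298 to 76319803, plus strand, and overlaps exons of the lncRNA Gm47525 on the opposite strand.

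Mthfd2, which encodes the mitochondrial dehydrogenase and cyclohydrolase that is low in most adult tissues and high in proliferating cells, lay at 25.4, 25.6 and 24.9 CPM in saline mice. PD mice had 25.1, 28.8 and 28.5 CPM, of which the first fell within the range of the saline mice and the others above it. The log2 fold change was 0.12 ± 0.09 (SE), with an edgeR adjusted p of 0.302 and a 95% interval of −0.09 to 0.32. Mthfd2 lies on chromosome 6 from 83305691 to 83325908, minus strand.

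Mthfd1l, which encodes the mitochondrial formyltetrahydrofolate synthetase that releases formate, lay at 27.8, 27.2 and 29.3 CPM in saline mice and at 25.2, 25.5 and 25.9 in PD mice. Every PD mouse was below every saline mouse, but the distance was small, with a log2 fold change of −0.14 ± 0.09 (SE) and an edgeR adjusted p of 0.181. The SD was 1.09 CPM in saline mice and 0.35 in PD mice. Mthfd1l lies on chromosome 10 from 3973118 to 4167081, plus strand.

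Levels of different genes were compared per length, as FPKM. In saline mice, Phgdh stood first with 44.4 ± 1.85 FPKM (SD, n = 3), followed by Shmt2 with 31.8 ± 1.76 and Mthfd1 with 22.6 ± 0.79. Psph with 12.7 ± 1.19 FPKM and Mthfd2 with 12.4 ± 0.40 overlapped, and so did Mthfd1l with 7.71 ± 0.36 and Shmt1 with 7.68 ± 0.67, while Psat1 with 10.2 ± 0.92 stood apart from both neighbours. By the mean over all 6 mice, Phgdh stood at the 82.5th percentile of all tested genes and Shmt1 at the 44.7th.

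In PD mice the same 3 genes led, with 43.7 ± 3.71 FPKM for Phgdh, 34.3 ± 4.04 for Shmt2 and 23.0 ± 1.55 for Mthfd1. Mthfd2 followed with 13.4 ± 0.84, ahead of Psph with 11.1 ± 0.81, Psat1 with 9.47 ± 0.62, Mthfd1l with 7.05 ± 0.13 and Shmt1 with 5.95 ± 0.23. No neighbours in this order overlapped between mice.

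Ratios between enzymes within a library do not depend on how libraries are scaled. Mitochondrial Shmt2 exceeded cytosolic Shmt1 in FPKM by 4.13-fold, 4.30-fold and 4.03-fold in saline mice and by 6.00-fold, 6.38-fold and 4.95-fold in PD mice. Every PD mouse was above every saline mouse, with a log2 difference of 0.47, but 3 mice against 3 allow no p under 0.1 in an exact two-sided permutation test (p = 0.1, adjusted p = 0.167 over 5 ratios). On counts in place of FPKM, the difference was 0.37, and the groups were apart only narrowly.

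Of the other ratios, Mthfd1l to Mthfd1 was 0.336, 0.339 and 0.347 in saline mice and 0.327, 0.285 and 0.312 in PD mice, also without overlap (log2 difference −0.15, exact permutation p = 0.1, adjusted p = 0.167). Mthfd2 to Mthfd2l, the related mitochondrial isozyme, ran from 2.44 to 2.65 in saline mice and from 2.83 to 3.45 in PD mice, a log2 difference of 0.26 on FPKM that was 0.06 on counts (exact permutation p = 0.1, adjusted p = 0.167 on FPKM). On counts the groups overlapped for this ratio. Mthfd2 to Mthfd1 and Shmt2 to Phgdh overlapped between the groups, with log2 differences of 0.09 and 0.13.

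**Figure D2:**
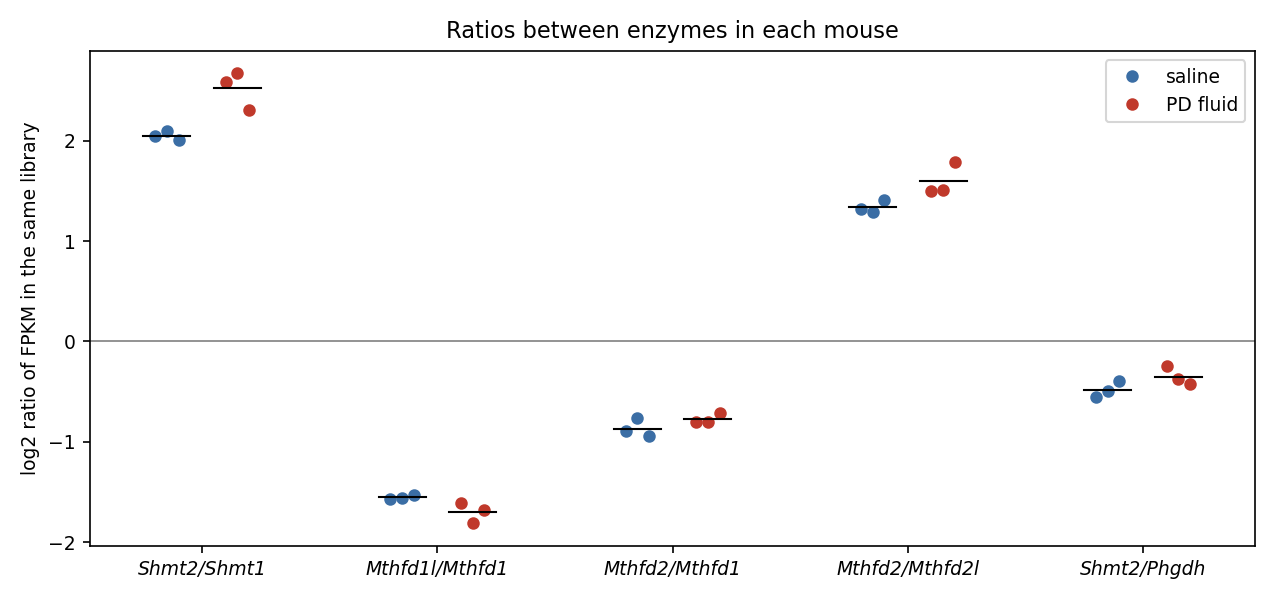
Log2 ratio of FPKM between pairs of enzymes within each library, with saline mice in blue, PD mice in red and a line at each group mean. PD mice lie above saline mice for Shmt2/Shmt1 and Mthfd2/Mthfd2l and below them for Mthfd1l/Mthfd1, and the groups overlap for the others. On counts, not drawn here, the groups overlap for Mthfd2/Mthfd2l as well.

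The fold change of each enzyme depended on what the libraries were scaled to, as did that of most genes. TMM, which assumes that most genes do not differ, was used above and put the median log2 fold change at 0.02 for all genes and −0.07 for the enzymes. Scaled to the 12 endothelial markers, the median was −0.88 for all genes and −0.97 for the enzymes, and all 8 enzymes were called lower, with log2 fold changes from −1.18 for Shmt1 to −0.78 for Mthfd2. Under that scaling 79.2% of all genes were called, 70.0% lower and 9.14% higher. Scaled to the 8 pan-leukocyte markers, the median was 0.45 for all genes and 0.36 for the enzymes, and 6 of 8 were called higher, from 0.29 for Mthfd1l to 0.55 for Mthfd2, while 65.4% of all genes were called, 60.8% higher and 4.56% lower. Psph and Shmt1 were the 2 not called then, with adjusted p of 0.0797 and 0.319 in edgeR. The median of the enzymes lay 0.09 below that of all genes in each of the 3 scalings. These are not 3 separate results, as a change of scaling shifts all genes by nearly the same amount.

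**Figure D3:**
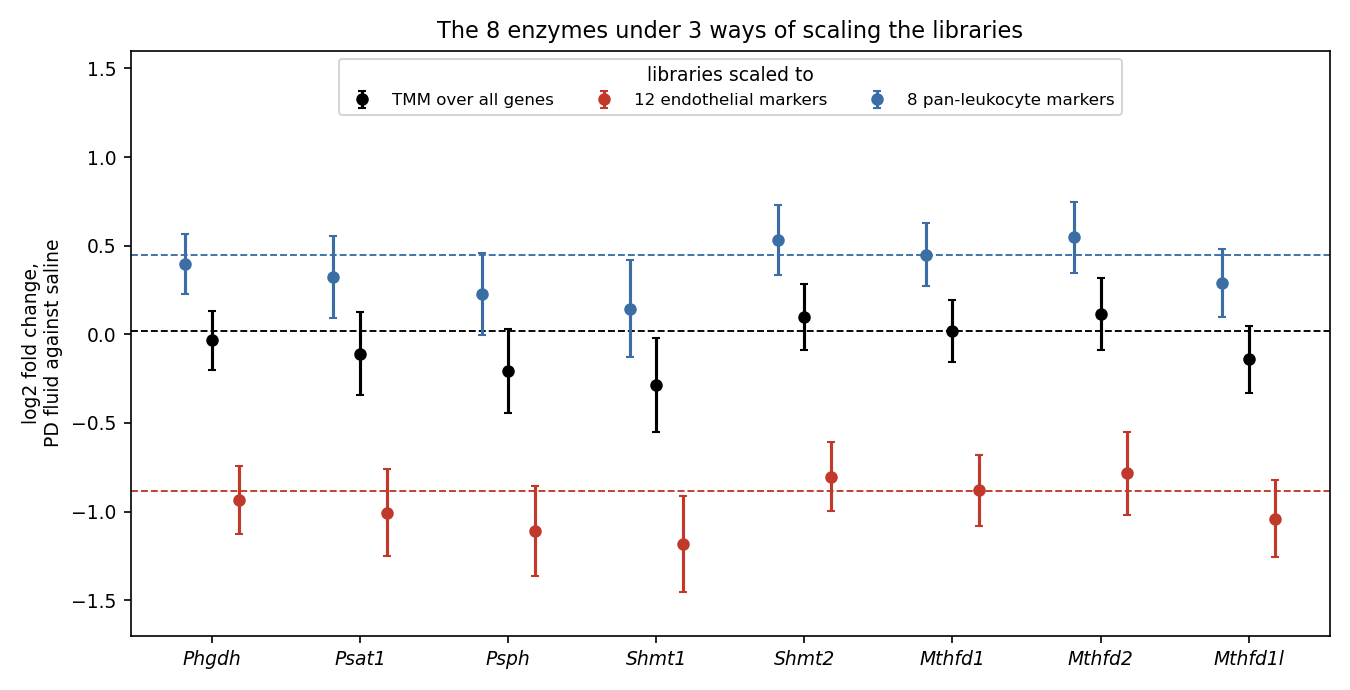
Log2 fold change of each enzyme with its 95% interval after scaling the libraries by TMM (black), to 12 endothelial markers (red) or to 8 pan-leukocyte markers (blue), with a dashed line at the median of all 14005 genes for each. Changing the scaling shifts all genes by nearly the same amount, so the enzymes stay near each dashed line, at about −0.88, 0.02 and 0.45.

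Genes linked to the 8 enzymes were taken from 5 lists, 3 of the serine, folate and methionine routes themselves and the others of ATF4 and of MYC and cycling. Under TMM, 45 of their 66 tested members were called, 27 higher and 18 lower, a share of 68.2% beside 58.9% of all genes. The 3 metabolic lists alone had 26 of 40 called, or 65.0%, so these shares lay near that of all genes. Scaled to endothelial markers the same lists gave 10 higher and 44 lower, while 9.14% of all genes were higher and 70.0% lower. Scaled to pan-leukocyte markers they gave 48 higher and 1 lower, while 60.8% of all genes were higher and 4.56% lower. Directions below are therefore relative to the median gene, at 0.02 under TMM.

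**Figure D4:**
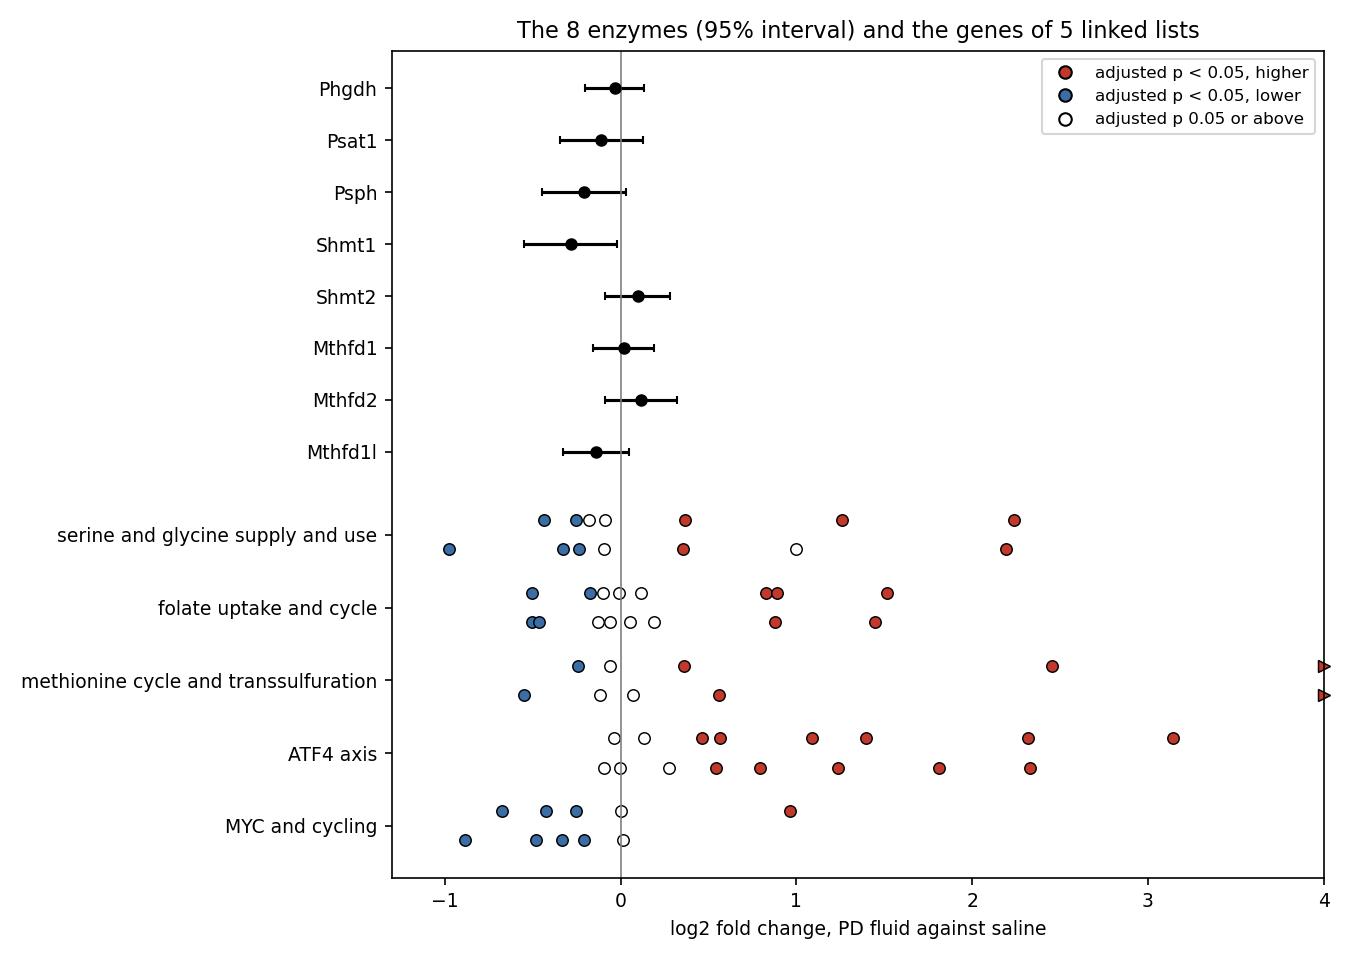
Log2 fold change under TMM of the 8 enzymes with 95% intervals (black, top) and of each tested gene in 5 linked lists, filled red or blue where called higher or lower. The 8 enzymes lie between −0.28 and 0.12, while listed genes reach from −0.97 to past the right edge, where triangles mark Mat1a and Cbs.

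In the list of serine and glycine supply and use, 14 of 15 genes were tested, with 5 higher, 5 lower and 4 not called, 71.4% called beside 58.9% of all genes. Without PD mouse 2, only 3 were higher. Slc6a9, which encodes the glycine transporter GLYT1, rose from 0.859, 1.11 and 1.37 CPM in saline mice to 5.33, 4.78 and 5.12 CPM in PD mice (log2 fold change 2.19 ± 0.24 SE, edgeR adjusted p = 1.89e-05). The neutral amino acid transporter genes moved apart: Slc1a4 and Slc38a2 rose by log2 fold changes of 1.26 and 0.37, whereas Slc1a5 and Slc38a1 had −0.33 and −0.43. Slc1a4 stayed at no more than 2.64 CPM, and its levels overlapped between the groups. The call of Slc1a4 was lost in 4 of 6 fits that left out 1 mouse, those without saline mouse 1 or 3 or PD mouse 1 or 2, with edgeR adjusted p of 0.0662 to 0.0919. Slc1a5, a carrier of glutamine and serine, lay between 590 and 721 CPM in saline mice and between 507 and 545 in PD mice. Scaled to pan-leukocyte markers, the log2 fold change of Slc1a5 was 0.10.

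Sfxn1, which encodes the mitochondrial serine carrier, fell from 65.2, 68.6 and 65.3 CPM to 51.7, 57.8 and 57.7 CPM (log2 fold change −0.25 ± 0.08 SE, edgeR adjusted p = 0.0139), but had 0.18 when scaled to pan-leukocyte markers, and an adjusted p of 0.0509 without PD mouse 1. Of the glycine cleavage system, which makes a one-carbon unit from glycine, Amt fell by 0.97 on the log2 scale at no more than 3.00 CPM. Its other genes called were Dld, which fell by 0.23 (edgeR adjusted p = 0.0152), and Gcsh, which rose by 0.36. Sdsl, a serine dehydratase-like gene, rose by 2.24 but stayed under 1 CPM in every library. The genes not called were Sfxn2, Sfxn3, Srr and Gldc, and Sds was too low to be tested.

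In the list of folate uptake and the folate cycle, 16 of 19 genes were tested, with 5 higher, 4 lower and 7 not called, 56.2% called beside 58.9% of all genes. Without PD mouse 1 or PD mouse 2, only 2 were lower. Folr2, which encodes the folate receptor known from tissue macrophages, rose from 46.1, 46.9 and 42.9 CPM to 126, 133 and 130 CPM (log2 fold change 1.52 ± 0.07 SE, edgeR adjusted p = 1.98e-08). Macrophage markers moved with it, with 9 of 10 called higher beside 31.1% of all genes. Their summed level was 2684 to 2839 CPM in saline mice and 10632 to 11484 in PD mice. Endothelial markers (11 of 12) and fibroblast and mesothelial markers (7 of 7 each) were called higher as well. B cell markers (8 of 8) and pan-leukocyte markers (7 of 8) were called lower. The part of macrophages in the Folr2 value was not tested. Slc46a1, the proton-coupled folate transporter, rose by 0.89 under TMM and had −0.01 when scaled to endothelial markers.

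Mthfs and Mthfsd, a folate-salvage synthetase and a gene related to it, were among the lower genes. Mthfs lay at 52.0, 50.8 and 47.8 CPM in saline mice and at 33.3, 38.2 and 37.6 in PD mice, without overlap (log2 fold change −0.47 ± 0.08 SE, edgeR adjusted p = 0.000772). Mthfsd had a log2 fold change of −0.51.

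Among the genes not called were 3 that work beside the 8 enzymes. Tyms, thymidylate synthase, had a log2 fold change of −0.10 (edgeR adjusted p = 0.533), Slc25a32, the mitochondrial folate carrier, −0.01 (adjusted p = 0.944) and Mthfd2l 0.05 (adjusted p = 0.807). Aldh1l2, a mitochondrial formyltetrahydrofolate dehydrogenase, had 2, 8 and 0 reads in saline mice and 4, 20 and 33 in PD mice and was too low to be tested, as were Folr1 and Ftcd.

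In the methionine cycle and transsulfuration, 10 of 13 genes were tested, with 5 higher, 2 lower and 3 not called, 70.0% called beside 58.9% of all genes. Mat1a, the methionine adenosyltransferase typical of liver, had 0 reads in all saline mice and 30, 37 and 25 in PD mice, at least 10.2-fold higher against a floor of 3 counts per library. Cbs, cystathionine beta-synthase, had 2 reads in all saline mice together and 135 in PD mice, a ratio of 66.5 with an exact 95% counting interval of 18.1 to 555. Gnmt rose by a log2 fold change of 2.45 and stayed under 2 CPM. These 3 genes are typical of liver or exocrine pancreas. The acinar markers moved with them, 11 of 11 tested called higher beside 31.1% of all genes. The part of acinar cells was not tested. Mtr, which encodes methionine synthase, fell by 0.24 (edgeR adjusted p = 0.0295) and Mat2b by 0.55 on the log2 scale, but Mtr had 0.19 when scaled to pan-leukocyte markers. Mtr was no longer called without saline mouse 1 or 3 or PD mouse 2 or 3, with edgeR adjusted p of 0.0635 to 0.140, and 1 gene of the list was then lower. Bhmt, Bhmt2 and Cth were too low to be tested.

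In the list around ATF4, 11 of 16 genes were higher, 0 lower and 5 not called under TMM, while 31.1% of all genes were higher. Scaled to endothelial markers, 4 were higher and 7 lower, while 9.14% of all genes were higher and 70.0% lower. Scaled to pan-leukocyte markers, 15 were higher and 0 lower, while 60.8% of all genes were higher and 4.56% lower. Asns, asparagine synthetase, rose from 8.67, 6.73 and 8.57 CPM to 18.8, 16.8 and 15.5 CPM (log2 fold change 1.09 ± 0.14 SE, edgeR adjusted p = 7.07e-05). Nupr1, a stress-induced nuclear protein, rose from 10.7, 14.0 and 10.6 CPM to 96.0, 102 and 113 CPM (log2 fold change 3.14 ± 0.12 SE, edgeR adjusted p = 3.98e-09). Cebpb, a transcription factor of inflammation, and Slc7a11, the cystine transporter, had log2 fold changes of 2.33 and 2.32. Atf4 itself lay at 75.3, 73.3 and 73.3 CPM in saline mice and 78.1, 78.0 and 64.9 in PD mice (log2 fold change −0.01, edgeR adjusted p = 0.959). The others not called were Ddit3, Chac1, Slc7a5 and Aldh18a1. Macrophage markers (9 of 10 called higher), neutrophil markers (5 of 6, 18.1 to 21.2 CPM in sum in saline mice, 215 to 232 in PD mice) and the acinar markers moved with this list. So did the fibroblast, mesothelial, and pericyte and smooth muscle markers, all 7 of each called higher. Endothelial (11 of 12), mast cell (6 of 6) and plasma cell markers (4 of 6) were called higher too. B cell (8 of 8), pan-leukocyte (7 of 8) and T and NK cell markers (5 of 8) were called lower. The part of any cell type in the values of the list was not tested.

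Phgdh and Psat1 were not called whereas Asns and Nupr1 rose under TMM, and the promoters of all 4 are shown, each from 250 bases before to 50 bases after a RefSeq transcription start of GRCm38.p6. Capitals mark TGATGNAA (on the minus strand TTNCATCA), the composite site of C/EBP and ATF factors. Phgdh is at chr3:98339920-98340219, Psat1 at chr19:15925010-15925309, Asns at chr6:7693160-7693459 and Nupr1 at chr7:126625421-126625720, all on the minus strand, and each runs 5′ to 3′ along its gene.
Phgdh: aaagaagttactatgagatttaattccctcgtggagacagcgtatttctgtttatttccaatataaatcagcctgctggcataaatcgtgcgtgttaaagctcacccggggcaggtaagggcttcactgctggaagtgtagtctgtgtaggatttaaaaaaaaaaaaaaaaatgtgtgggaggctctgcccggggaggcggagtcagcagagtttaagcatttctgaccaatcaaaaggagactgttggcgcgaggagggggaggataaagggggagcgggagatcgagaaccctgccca
Psat1: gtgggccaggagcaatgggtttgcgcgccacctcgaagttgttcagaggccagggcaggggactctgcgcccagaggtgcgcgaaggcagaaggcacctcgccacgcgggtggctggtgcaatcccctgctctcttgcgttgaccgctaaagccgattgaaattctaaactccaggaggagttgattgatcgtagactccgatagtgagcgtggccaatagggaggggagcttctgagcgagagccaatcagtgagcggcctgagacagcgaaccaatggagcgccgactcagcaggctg
Asns: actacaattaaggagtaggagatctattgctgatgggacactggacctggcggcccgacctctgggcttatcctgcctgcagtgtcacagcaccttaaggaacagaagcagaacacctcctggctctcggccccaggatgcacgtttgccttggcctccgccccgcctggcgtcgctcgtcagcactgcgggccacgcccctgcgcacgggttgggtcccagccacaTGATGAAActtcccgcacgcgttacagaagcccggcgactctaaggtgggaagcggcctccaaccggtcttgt
Nupr1: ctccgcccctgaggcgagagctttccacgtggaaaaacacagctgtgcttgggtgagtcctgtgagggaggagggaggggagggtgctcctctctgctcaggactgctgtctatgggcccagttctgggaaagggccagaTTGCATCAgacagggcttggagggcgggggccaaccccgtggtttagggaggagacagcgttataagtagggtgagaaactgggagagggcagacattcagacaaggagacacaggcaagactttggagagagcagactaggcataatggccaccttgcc
In Asns the match begins 23 bases before the start and reads along the gene, and in Nupr1 it begins 110 bases before it on the other strand. The motif was found in windows of 0 of the 8 enzymes and of 7 of the 14 matched genes of the list around ATF4, against 4.51% of 27025 genes with a window and 3.97% of 32851 windows. The 7 were Asns, Chac1, Trib3, Nupr1, Slc7a11, Pycr1 and Vldlr. Of these, Chac1 was not called, while Cebpb rose and was not among the 7. The list was chosen around ATF4, so its share of matches is not a separate result. The 8 enzymes are too few to set 0 matches apart from 4.51%. Whether a match goes with a change in level was not tested. The E-box CACGTG, read alike on both strands, was found for 0 of the 8 and 2 of the 14, against 8.09% of genes. A match describes letters only, and sites outside these windows were not searched.

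In the list of MYC and cycling genes, all 10 were tested, with 1 higher, 7 lower and 2 not called, while 27.8% of all genes were lower. Myc lay at 196, 187 and 192 CPM in saline mice and 194, 193 and 188 in PD mice, and its log2 fold change of 0.00 had an edgeR adjusted p of 0.989. Mki67, a marker of cycling cells, had a log2 fold change of 0.01 (edgeR adjusted p = 0.932). Ccnb1, cyclin B1, fell from 30.0, 35.3 and 30.1 CPM to 16.8, 16.9 and 17.9 CPM (log2 fold change −0.89 ± 0.10 SE, edgeR adjusted p = 2.82e-05). Cdk1 fell by 0.67 and Top2a by 0.48 on the log2 scale, and the 1 gene higher was Mycn, at no more than 1.51 CPM. Mycn was not called in DESeq2, without the filter on low counts, or when any mouse but PD mouse 3 was left out, with edgeR adjusted p of 0.0616 to 0.142 in those 5 fits. The whole list had 5 genes called in place of 8 without saline mouse 1, PD mouse 1 or PD mouse 2. B cell markers moved with the cycling genes, all 8 called lower, with a summed level of 7056 to 7405 CPM in saline mice and 3443 to 3461 in PD mice, and their part in these values was not tested. Scaled to pan-leukocyte markers, 4 genes of the list were higher and 1 lower, while 60.8% of all genes were higher and 4.56% lower. Scaled to endothelial markers, 0 were higher and 9 lower, while 9.14% of all genes were higher and 70.0% lower.

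Among all tested genes, the one with the profile most like each enzyme over the 6 libraries was found by the mean absolute difference of centred log2(CPM + 1). These were Spdl1 for Phgdh (0.017), Nipal3 for Psat1 (0.029), Opn3 for Psph (0.025), Neu1 for Shmt2 (0.030), Hmg20b for Mthfd1 (0.019), Ighv1-75 for Mthfd2 (0.018) and Sec61a2 for Mthfd1l (0.010). For Shmt1 it was Top3a (0.021), which lies 10738 bases away on chromosome 11, from 60740058 to 60777365. Top3a lay at 29.1, 27.0 and 33.4 CPM in saline mice and at 23.2, 23.9 and 26.7 in PD mice (log2 fold change −0.28 ± 0.11 SE, edgeR adjusted p = 0.0413). Its call was lost in 4 of 6 fits that left out 1 mouse, those without saline mouse 1 or 3 or PD mouse 1 or 2, with edgeR adjusted p of 0.0846 to 0.151. Its log2 fold change equalled that of Shmt1 to 2 decimals, which follows from choosing it by its likeness to Shmt1 in these same libraries. Whether the 2 genes are linked through their positions was not tested.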

How the data were processed

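RNA sequencing was performed on peritoneal ECs of 3 saline and 3 PD mice. The authors deposited read counts per gene without normalization, and FPKM values that the authors computed per mouse. Their mean FPKM, log2 ratio, p-value and FDR columns were not used, and 0 sample columns were left unmatched. The submitters' processing notes name fastp 0.18.0, Bowtie2 2.2.8, HISAT2, StringTie and RSEM; the aligner's role, genome build, annotation and strand setting are not given in the sources used here. The labels name magnetic sorting for CD31, the supplement flow sorting for CD31 without CD45. Nothing says whether cells were pooled between mice.

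After filterByExpr, which left 14005 genes, and TMM scaling, the quasi-likelihood test of edgeR 4.0.16 was fitted without covariates in R 4.3.3, with Benjamini-Hochberg adjustment over all genes tested and a threshold of 0.05. SE is the log2 fold change divided by the square root of F. Alternatives used DESeq2 1.42.0, limma 3.58.1 and other scalings. The test was first run on simulated data. Ratios were compared on FPKM by exact permutation tests. Gene positions came from GENCODE M21, in which 22128 of 22183 identifiers matched, and promoters from RefSeq (GRCm38.p6), in which 8 of 8 enzymes matched.

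The 8 enzymes and all lists were chosen with earlier results of these data known. Named genes are the 8, a fixed set of 12 beside them with Pecam1 and Ptprc, up to 3 genes per list and direction with the largest change and a mean of at least 10 counts, and the nearest profile of each enzyme. Genes overlapping an enzyme's exons, Gcsh, Dld, Slc38a2 and Laptm5 were named after their values were seen. So were genes given only for a motif match, as not called or as not tested. Some genes of the rule and lists are not reported here by name. No 2 libraries of a group differed by so little as to be one library counted again. Intervals and floors cover counting error only where they come from counts.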

Additional observations from a re-analysis of the deposited data

How the results depend on the processing

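All genes called numbered 6996 to 8018 when each mouse was left out, and enzymes called 0 to 1, the 1 being Shmt1 without saline mouse 2. Scaling to endothelial markers called 8 enzymes lower and 11089 of all genes (1280 higher, 9809 lower), and scaling to pan-leukocyte markers 6 enzymes higher and 9153 of all genes (8514 higher, 639 lower). Requiring a 2-fold change left 15 listed genes, 15 higher and 0 lower, 0 enzymes and 2410 of all genes (17.2%). The 2410 were not split by direction, so the direction of the 15 has no share of all genes beside it. The cause of these differences, beyond the scaling or threshold itself, was not tested. Of 50 named genes, 48 kept direction and side of the threshold in DESeq2, 50 in limma-voom, 49 without the filter, 46 under total count scaling and 50 without acinar genes. Log2 fold changes that turned sign when a mouse was left out ranged from −0.089 to 0.014 for Phgdh, −0.031 to 0.075 for Mthfd1, −0.011 to 0.13 for Mthfd2l, −0.051 to 0.083 for Atf4, −0.10 to 0.014 for Spdl1, −0.055 to 0.035 for Hmg20b, −0.057 to 0.029 for Slc25a32, −0.017 to 0.023 for Myc, −0.17 to 0.036 for Tyms and −0.067 to 0.058 for Mki67. Scaled to endothelial markers, those that turned were Shmt2 (−0.80), Mthfd1 (−0.88), Mthfd2 (−0.78), Mthfd2l (−0.85), Myc (−0.90), Mki67 (−0.89), Slc46a1 (−0.010), Neu1 (−0.74), Ighv1-75 (−0.78) and Pecam1 (−0.77). Scaled to pan-leukocyte markers, they were Phgdh (0.40), Psat1 (0.32), Psph (0.23), Shmt1 (0.15), Mthfd1l (0.29), Tyms (0.33), Mtr (0.19), Slc25a32 (0.42), Sfxn1 (0.18), Atf4 (0.43), Slc1a5 (0.10), Spdl1 (0.39), Nipal3 (0.32), Opn3 (0.23), Top3a (0.15), Hmg20b (0.42) and Sec61a2 (0.27). In DESeq2 Myc had −0.0086, and under total count scaling Slc25a32, Atf4 and Hmg20b had 0.0014, 0.0069 and 0.00056. Deviations from the group mean had r of 0.19, 0.07 and −0.27 between same-numbered mice and −0.41 to 0.36 between differently numbered ones. With 3 mice per group, these values cannot decide whether mice were paired. A fit with the replicate number as a block called 7904 genes, 0 enzymes and 42 listed genes. Mycn lost its call in that fit, in DESeq2 and without the filter. Leaving out a mouse left 37 to 44 listed genes called. Each enzyme had at least 362 reads per library, and what depth alone would allow was not tested.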

Other observations

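Wider lists from the deposited pathway annotation, chosen after seeing the data, were counted with the 8 enzymes left out. Of the KEGG list of glycine, serine and threonine metabolism, 27 other genes were tested, with 14 higher, 5 lower and 8 not called, at a median of 0.61 (log2 fold change). That is 70.4% called, beside 58.9% of all genes, of which 31.1% were higher and 27.8% lower. The higher genes included Gatm and Gamt of creatine synthesis, and the acinar markers, 11 of 11 tested called higher, moved with the list. Their part in it was not tested. Of the KEGG list of the one carbon pool by folate, 12 other genes were tested, with 2 higher, 6 lower and 4 not called, or 66.7% called, and the median was −0.14. These counts are under TMM, and the same lists were not counted under the marker scalings.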
